A study of Mus musculus with 16 samples.

Results

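The 6 loci described here hold the genes S1pr1, S1pr2, S1pr4, Gna13, Arhgef1 and P2ry10. The products of S1pr1, S1pr2, Gna13 and Arhgef1 keep germinal center B cells inside the follicle or let lymphocytes leave it. S1pr4 and P2ry10 encode related receptors. The members were the peaks of the deposited count table whose middle lay nearest to one of these protein-coding genes, at most 50 kb from the gene span, and for S1pr1 up to 100 kb. This gave 73 of 82188 peaks: 34 at S1pr1, 20 at Gna13, 6 at P2ry10, 5 at S1pr2, 5 at Arhgef1 and 3 at S1pr4. Of the 34 peaks at S1pr1, 9 lay over 50 kb away; a further 7 peaks nearest to S1pr1, the closest at 113672 bp, and 2 nearest to P2ry10, the closest at 72966 bp, were not assigned.

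Chromatin accessibility was measured by Omni-ATAC, in which a transposase cuts open DNA, in germinal center B cells from the spleens of C57BL/6 mice aged 8 to 10 weeks. There were 4 groups of 4 libraries each: CB and CC cells from Smarca4+/+ mice (WT) and CB and CC cells from Smarca4+/- mice (HET). Smarca4 encodes the ATPase BRG1 of the BAF chromatin remodeling complex. The labels give CB and CC as abbreviations only; the series title speaks of centrocytes and its design line of germinal center B cells (GC B-cells). The driver of the deletion, the deleted part of Smarca4 and whether each library came from its own mouse were not given in the sources used here, so p-values measure the spread between these libraries, which may be partly technical. At Smarca4 itself, summed accessibility was 190 ± 7.0 CPM (read counts scaled to a common library size; SD, n = 4) in WT CB and 177 ± 2.3 in HET CB, and 164 ± 14.5 in WT CC and 154 ± 10.4 in HET CC; neither genotype difference passed the test (adjusted p = 0.413 and 0.374, edgeR).

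Sphingosine 1-phosphate (S1P) is a lipid that is abundant in blood and lymph and scarce inside lymphoid tissue. S1PR1 couples to the G protein alpha-i subunit and draws lymphocytes toward S1P and out of the tissue, whereas S1PR2 couples to G-alpha-13, which through the exchange factor ARHGEF1 restrains migration and survival and holds germinal center B cells in the follicle centre. S1PR4 is another S1P receptor of lymphocytes, and P2RY10 is a lysophospholipid receptor related to them. Human germinal center lymphomas carry recurrent mutations in S1PR2 and GNA13.

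The promoter sequences below are each covered by a member peak, of which only that at Gna13 changed against its locus in WT. They are the 250 bases before a transcription start in RefSeq (build GRCm38.p6), read 5′ to 3′ on the gene's strand: S1pr2 at chr9:20976794-20977043 on the minus strand, Gna13 at chr11:109362544-109362793 and the second P2ry10 start at chrX:107089083-107089332, both on the plus strand. Capitals mark matches to the motifs named after the sequences.
S1pr2: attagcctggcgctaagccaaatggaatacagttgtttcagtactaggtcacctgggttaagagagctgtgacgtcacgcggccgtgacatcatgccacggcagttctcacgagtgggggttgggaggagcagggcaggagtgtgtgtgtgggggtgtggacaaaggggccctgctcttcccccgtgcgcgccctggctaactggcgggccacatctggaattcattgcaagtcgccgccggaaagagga
Gna13: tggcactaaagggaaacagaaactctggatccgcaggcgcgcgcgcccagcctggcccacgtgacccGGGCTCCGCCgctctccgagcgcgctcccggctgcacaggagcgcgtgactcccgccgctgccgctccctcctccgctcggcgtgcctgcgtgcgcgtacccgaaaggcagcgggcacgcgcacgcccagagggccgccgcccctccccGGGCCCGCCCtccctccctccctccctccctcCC
P2ry10: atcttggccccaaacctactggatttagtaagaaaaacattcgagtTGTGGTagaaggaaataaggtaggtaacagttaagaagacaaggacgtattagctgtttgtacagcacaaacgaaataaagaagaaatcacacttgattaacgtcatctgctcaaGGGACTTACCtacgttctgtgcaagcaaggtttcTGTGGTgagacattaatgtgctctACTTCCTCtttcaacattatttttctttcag

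The table held 7 promoter windows for 5 of the 6 genes; S1pr1 was not among them. Windows ran from 250 bases before to 50 bases after the start and were searched on both strands for KLF (CCACCC), FOXO (GTAAACA), ETS (CCGGAAG), PU.1 (GAGGAAGT), E-box (CAGCTG), octamer (ATGCAAAT), NF-kB (GGG, any 5 bases, CC), BCL6 (TTCCNNGAA), AP-1 (TGANTCA), MEF2 (CTA, any 4 bases, TAG) and RUNX (TGTGGT) letters. The S1pr2 window held none of them. The Gna13 window held NF-kB letters in overlapping positions and on both strands, and a KLF match that runs across the start, so that only its first letters are seen above. Over all 32851 promoter windows of the table, 50.8% held the NF-kB letters and 31.5% the KLF letters, so both are common. The P2ry10 window shown held 2 RUNX matches, 1 NF-kB match and a PU.1 match 31 bases before the start; PU.1 letters stood in 3.20% and RUNX letters in 16.8% of all windows. The other P2ry10 window held E-box and AP-1 letters, found in 16.3% and 7.81% of windows, and a RUNX match. The window of the first Arhgef1 start held KLF and NF-kB letters, and that of S1pr4, which no peak overlapped, a single KLF match. These matches describe letters only.

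The libraries differed strongly in depth, with totals of 31696941 to 38798802 counts per WT CB library and 38716281 to 51011923 per HET CB library, but 3494356 to 3750936 per WT CC library and 5310327 to 7474760 per HET CC library, so CC values carry the larger counting error. Depth separates CB from CC and, within CC, WT from HET, so what goes with depth cannot be told apart from the groups. Thinning all libraries to the smallest evens out the number of counts only. It is given below where it ended a call at a named peak or locus. Marker loci moved with the same groups. Summed accessibility at 7 loci of germinal center B cells (Bcl6, Mef2b, Gcsam, Fas, Nuggc, Mybl1 and Rgs13) spanned 1168 to 1230.1 CPM (WT CB), 1149 to 1185 (HET CB), 731 to 862 (WT CC) and 847 to 973 (HET CC). At the 10 of 12 T cell loci with a peak it ranged from 141 to 149, 121 to 128, 353 to 425 and 270 to 350 CPM in the same order, and at the 4 of 5 loci of naive follicular B cells from 439.7 to 462, 428 to 439, 549 to 626 and 468 to 563. Summed accessibility ranged from 223 to 237, 227 to 235, 282 to 338 and 281 to 285 CPM at 8 NK cell loci, and from 166 to 175, 159 to 164, 263 to 269 and 249 to 291 CPM at 7 of 8 myeloid loci. It ranged from 182 to 199, 173 to 193, 256 to 308 and 237 to 256 CPM at 6 endothelial and stromal loci, from 474 to 509, 471 to 477, 422 to 461 and 414 to 422 at 5 plasma cell loci, and from 938 to 986, 900 to 912, 793 to 924 and 757 to 851 at 6 loci of B cells in general. No peak was assigned to Lck, Cd28, Ighd or Lyz2 of these lists. The sums weigh loci with many reads most. Taken locus by locus, the median log2 fold change from CB to CC was 1.82 in WT and 1.87 in HET at T cell loci. At NK cell loci it was 2.37 and 2.53. By edgeR's test 9 T cell loci rose and 1 fell in WT, and 9 rose and 0 fell in HET. Of the NK cell loci 5 rose in WT and 6 in HET, and 0 fell. Over all genes 31.6% were called higher in WT and 31.1% in HET. The part of the marker shifts in the results was not tested. In bulk libraries such as these, a change within the cells and a change in the mix of cells cannot be told apart.

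**Figure D1:**
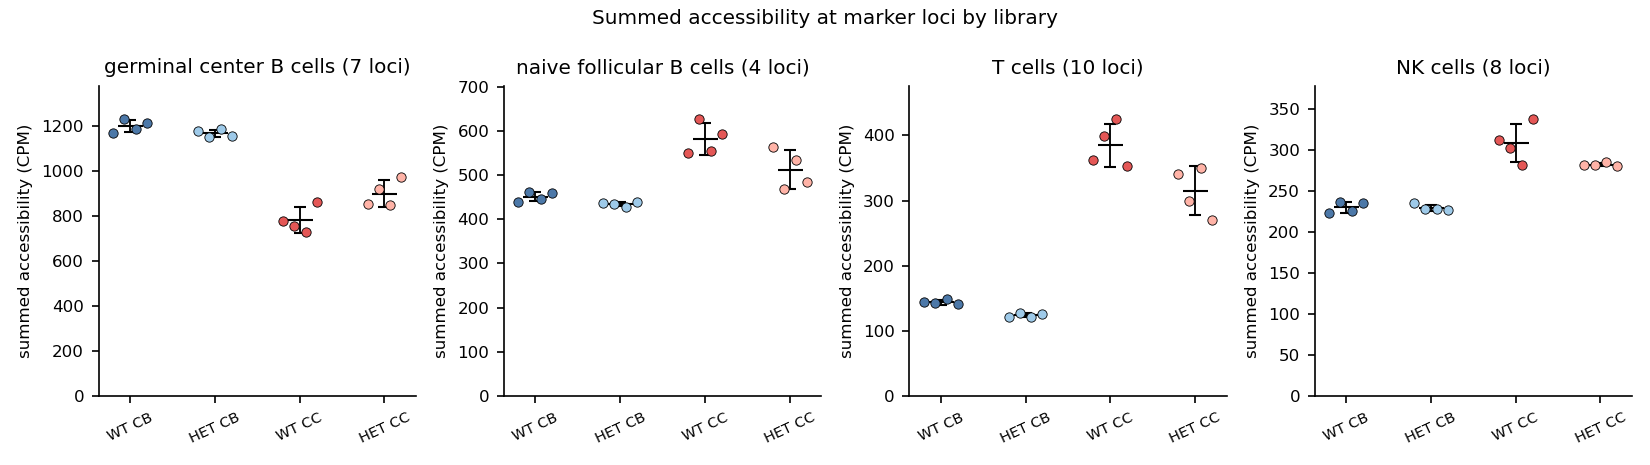
Summed accessibility in CPM (y axis) at marker loci of 4 cell types in each of the 16 libraries (points, by group on the x axis), with the mean (dash) and SD (bars). The 4 WT CC libraries lie from 731 to 862 CPM at germinal center B cell loci, below all CB libraries and overlapping HET CC, and highest at T cell loci, from 353 to 425 CPM.

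The first question was how these loci differ between CC and CB cells. The egress receptor locus S1pr1 was more open in CC than in CB, and the confinement loci S1pr2 and Gna13 were less open, in both genotypes. Arhgef1, which acts downstream of Gna13, was more open in CC in both genotypes, and S1pr4 and P2ry10 passed the test in WT and not in HET. By edgeR's quasi-likelihood test with Benjamini-Hochberg adjustment over all peaks, 32 of the 73 member peaks rose and 21 fell from CB to CC in WT, and 26 rose and 28 fell in HET. Over all peaks tested, 57.9% were called in WT (30.2% higher, 27.7% lower) and 58.8% in HET (30.8% higher, 28.1% lower), so the overall share called at the members, 72.6% and 74.0%, is to be read against a majority of all peaks. The 4 CC libraries did not overlap the 4 CB libraries at 51 member peaks in WT and 48 in HET, against 49.1% and 51.5% of all peaks. The median log2 fold change of the members was 0.13 in WT and -0.02 in HET, against -0.01 and 0.00 over all peaks; it averages loci that moved in opposite directions.

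S1pr2 had the largest fold loss of accessibility among the 6 loci. Its 5 peaks summed to 153, 137, 148 and 140 CPM in WT CB and to 132, 140, 140 and 138 in HET CB, where CPM of a summed locus is scaled to the counts at gene-assigned peaks. In WT CC the sums were 48.8, 32.6, 53.1 and 60.1 CPM and in HET CC 62.3, 81.3, 65.7 and 82.6 CPM. Every CC library lay below every CB library, and every HET CC library above every WT CC library, though the lowest HET CC and the highest WT CC library were close. The log2 fold change from CB to CC was -1.57 ± 0.09 (SE) in WT, a 2.96-fold loss (adjusted p = 7.31e-16), and -0.91 ± 0.08 in HET, a 1.87-fold loss (adjusted p = 5.66e-12). Over all 15071 genes with peaks, 63.3% were called in WT and 62.8% in HET, and 53.7% and 56.8% had groups without overlap.

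All 5 S1pr2 peaks fell from CB to CC in both genotypes. The peak at the start (chr9:20976577-20977077 in mm10, its middle 34 bp upstream), which covers the promoter shown above, fell least, from 25.8 ± 2.2 to 14.2 ± 3.0 CPM in WT (SD, n = 4; log2 fold change -0.86 ± 0.12 SE). The fall was larger at 3 peaks upstream of the gene, at 3183, 6522 and 11255 bp from the start. The one at 3183 bp (chr9:20979726-20980226) went from 27.9 ± 1.7 to 7.27 ± 3.4 CPM in WT (log2 fold change -1.93 ± 0.16). The one at 11255 bp (chr9:20987798-20988298), the most open of the locus, went from 38.9 ± 1.1 to 11.5 ± 3.2 CPM (log2 fold change -1.74 ± 0.13). The last peak, 1284 bp inside the gene, fell by 1.49 on the log2 scale in WT and by 0.69 in HET.

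Gna13, the G protein subunit through which S1PR2 signals, fell in summed accessibility from 432, 451, 438 and 445 CPM in WT CB to 324, 283, 269 and 290 in WT CC, and in HET from 456, 442, 453 and 441 to 316, 347, 320 and 333. Neither genotype had an overlap between CB and CC libraries. The log2 fold changes were -0.60 ± 0.04 (SE; adjusted p = 1.15e-14) and -0.44 ± 0.04 (adjusted p = 6.6e-12).

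Within Gna13 most called peaks fell and 2 rose. The most open peak of the locus, 167 bp upstream of the start (chr11:109362377-109362877) and covering the promoter shown above, rose from 51.5 ± 1.4 to 64.9 ± 5.8 CPM in WT and from 50.6 ± 2.4 to 65.8 ± 6.5 in HET (SD, n = 4; log2 fold changes 0.33 and 0.37, adjusted p = 8.5e-05 and 1.68e-06). The other 2 peaks at most 2 kb from the start fell in both genotypes, by up to 0.50 on the log2 scale in WT. Of the 6 peaks farther upstream, 1 rose and 2 fell in each genotype, with a lowest log2 fold change of -1.70 in WT. All 5 peaks downstream of the gene fell in both genotypes, with log2 fold changes from -2.46 to -1.05 in WT and from -1.58 to -0.90 in HET. Of the 6 peaks inside the span and over 2 kb from the start, 5 fell in WT and all 6 in HET. The largest fall was 4314 bp downstream (chr11:109405433-109405933), from 24.9, 27.5, 23.1 and 27.1 CPM in WT CB to 6.67, 3.53, 3.95 and 4.38 in WT CC, a 5.51-fold loss. The largest rise, 14932 bp upstream of the start (chr11:109347612-109348112), went from 1.58 ± 0.11 to 7.84 ± 2.0 CPM in WT (log2 fold change 2.30 ± 0.27 SE) at a low level. Of the 20 peaks, 2 rose and 14 fell in WT, and 2 rose and 15 fell in HET.

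Arhgef1, the exchange factor that carries the G-alpha-13 signal onward, summed in WT to 132, 121, 131 and 128 CPM for CB and 184, 187, 184 and 189 for CC, and in HET to 119, 113, 115 and 113 for CB and 169, 157, 185 and 144 for CC. CC libraries lay above CB libraries in both genotypes, so that this locus moved opposite to Gna13. The log2 fold changes were 0.54 ± 0.06 (SE; adjusted p = 7.18e-11) and 0.51 ± 0.05 (adjusted p = 9.92e-11). The peak 93 bp upstream of the first start (chr7:24902643-24903143) rose by 0.40 on the log2 scale in WT. The largest rise was inside the gene, 2929 bp from the nearer start (chr7:24907025-24907525), from 10.4 ± 0.49 to 26.0 ± 7.2 CPM in WT (SD, n = 4). The fifth peak, 636 bp inside the span, did not pass the test in either genotype. The upstream neighbour Cd79a, a B cell receptor subunit that takes the peaks on its own side, differed by 0.06 and 0.07 on the log2 scale and was not called.

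S1pr1 was the locus with the most peaks and, at single peaks, the largest gains. Its summed accessibility in WT was 443, 465, 437 and 446 CPM for CB and 593, 647, 599 and 618 for CC, and in HET 455, 453, 451 and 448 for CB and 549, 460, 531 and 488 for CC. The WT groups lay far apart, while the lowest HET CC library was just above the highest HET CB library. The log2 fold change was 0.46 ± 0.04 in WT (SE; adjusted p = 5.66e-12) and 0.17 ± 0.04 in HET (adjusted p = 0.000625); the HET call was lost when peaks were assigned to genes only within 10 kb (log2 fold change 0.11, adjusted p = 0.0995). Of 34 peaks, 22 rose and 1 fell in WT, and 18 rose and 7 fell in HET.

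In WT, gains at S1pr1 lay inside the gene and on both sides of it, near and far. Among the 6 peaks inside the span or at most 1 kb from it, 5 rose in each genotype. The remaining one was not called in WT and fell in HET (log2 fold change -0.44). The largest gain of the 6, inside the gene (chr3:115711814-115712314), was 2.57 in WT and 2.41 in HET on the log2 scale. The largest gain of all was 41025 bp from the gene on the lower-coordinate side (chr3:115669158-115669658), where accessibility was 1.08, 1.32, 1.07 and 1.19 CPM in WT CB and 8.89, 14.1, 7.05 and 4.10 in WT CC. Its counts were few, 15 to 48 per WT CC library, but every CC library lay above every CB library of its genotype; the log2 fold changes were 2.86 ± 0.29 and 3.02 ± 0.28 (SE). Beyond 50 kb, 4 of 5 peaks on the lower-coordinate side and 3 of 4 on the higher-coordinate side rose in WT; in HET 2 of the 5 rose and 1 fell, and 3 of the 4 rose and 1 fell. On the higher-coordinate side within 50 kb, 2 of 5 peaks rose and 1 fell in WT, and in HET 0 rose and 2 fell. The 4 peaks between 5990 and 10814 bp on the lower-coordinate side had no call in WT, and those at 10814 and 9025 bp fell in HET (by 0.54 and 0.61 on the log2 scale). The only fall called in both genotypes was 15451 bp away on the higher-coordinate side (chr3:115730256-115730756), from 9.17 ± 1.3 to 4.87 ± 1.1 CPM in WT (SD, n = 4).

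**Figure D2:**
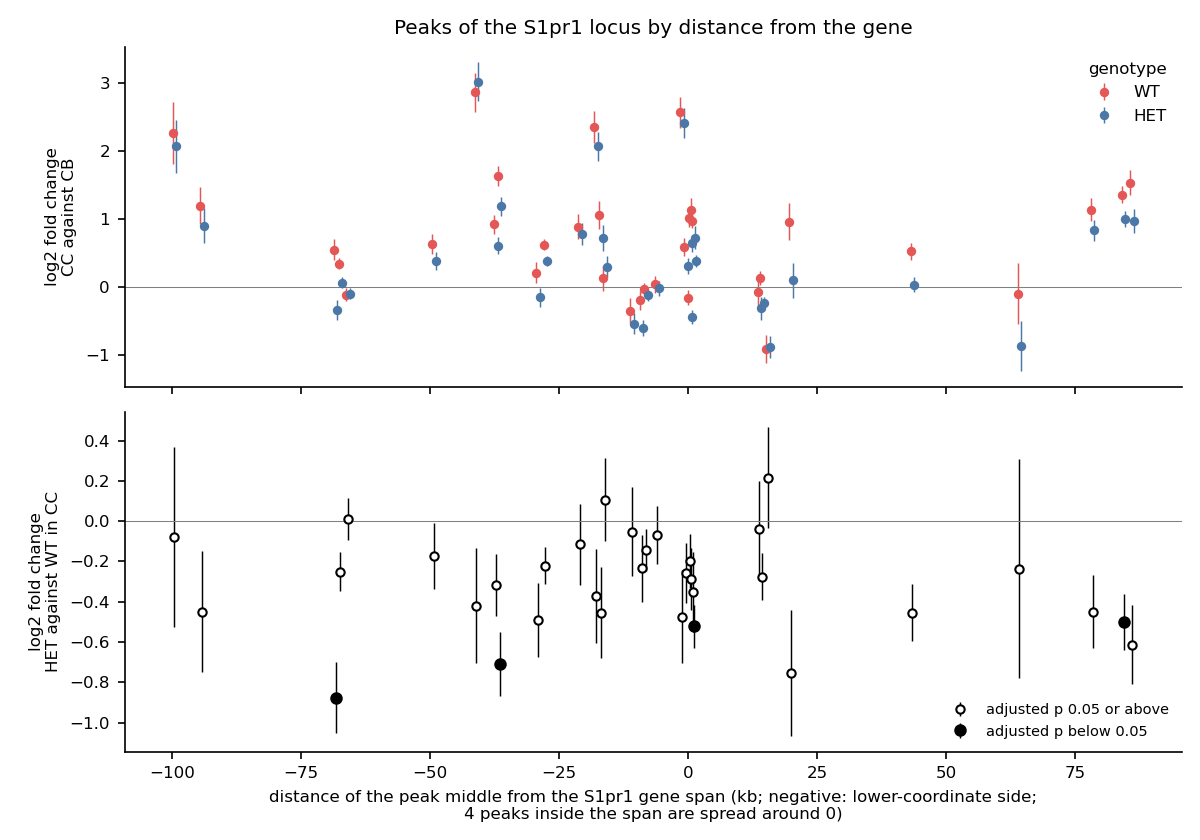
Log2 fold changes with SE (y axes) of the 34 S1pr1 peaks by distance of the peak middle from the gene span in kb (x axis); upper panel CC against CB in WT (red) and HET (blue), lower panel HET against WT in CC, with filled points where adjusted p is below 0.05. Gains reach 2.86 in WT, and 31 of 34 points in the lower panel lie below 0.

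S1pr4, whose receptor is largely confined to blood cells, changed least at the level of the locus in HET. Its 3 peaks, all inside the span, summed to 78.3, 72.1, 74.9 and 69.7 CPM in WT CB and 80.6, 85.0, 84.2 and 81.7 in WT CC (log2 fold change 0.17 ± 0.06 SE, adjusted p = 0.016; 0.0532 without WT CB library 4). In HET the sums were 70.7 to 74.6 CPM in CB and 71.2 to 77.8 in CC, and the groups overlapped (log2 fold change 0.03 ± 0.06, adjusted p = 0.615). The peaks did not move alike. The one 455 bp inside the gene from the start (chr10:81499432-81499932) rose from 26.7 ± 0.43 to 42.4 ± 6.6 CPM in WT and from 27.1 ± 1.7 to 33.4 ± 2.0 in HET (SD, n = 4). The one at the far end of the gene (chr10:81497594-81498094) fell in WT, from 21.1 ± 1.8 to 16.3 ± 2.0 CPM (adjusted p = 0.0069; 0.132 after thinning all libraries to the smallest).

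P2ry10, on the X chromosome, summed to 54.1, 59.1, 53.8 and 58.1 CPM in WT CB and 64.5, 63.3, 60.8 and 75.7 in WT CC (log2 fold change 0.23 ± 0.08 SE, adjusted p = 0.0117). This call was lost without WT CC library 4 (log2 fold change 0.16, adjusted p = 0.113) and after thinning (adjusted p = 0.0653). In HET the sums were 52.6 to 62.6 CPM in CB and 49.5 to 63.7 in CC and overlapped (log2 fold change 0.04 ± 0.07, adjusted p = 0.612). The peak over its second start (chrX:107089003-107089503), which covers the promoter shown and is the most open, rose in WT from 22.0 ± 1.4 to 26.8 ± 2.7 CPM (SD, n = 4; adjusted p = 0.0275). That call was lost without WT CB library 1 or 3 or WT CC library 2 (adjusted p = 0.0642, 0.0559 and 0.135), with total-count scaling (0.0593) and after thinning (0.111). The peak over the first start was not called. The farthest peak, 45950 bp upstream, rose in both genotypes at a low level, but WT CC library 2 held 1 count there and lay below all CB libraries; the WT call was lost in 2 of 16 fits that left out 1 library (adjusted p up to 0.0664). Over all 2017 X-chromosome peaks the median log2 fold change from CB to CC was 0.04 in WT and -0.01 in HET, and the 3 peaks of Xist, which marks the inactive X of females, summed to between 18.0 and 43.9 CPM in every library. P2ry10b, the neighbouring relative of P2ry10, rose by 0.72 and 0.62 on the log2 scale; how reads that map to both genes were handled was not given in the sources used here.

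**Figure D3:**
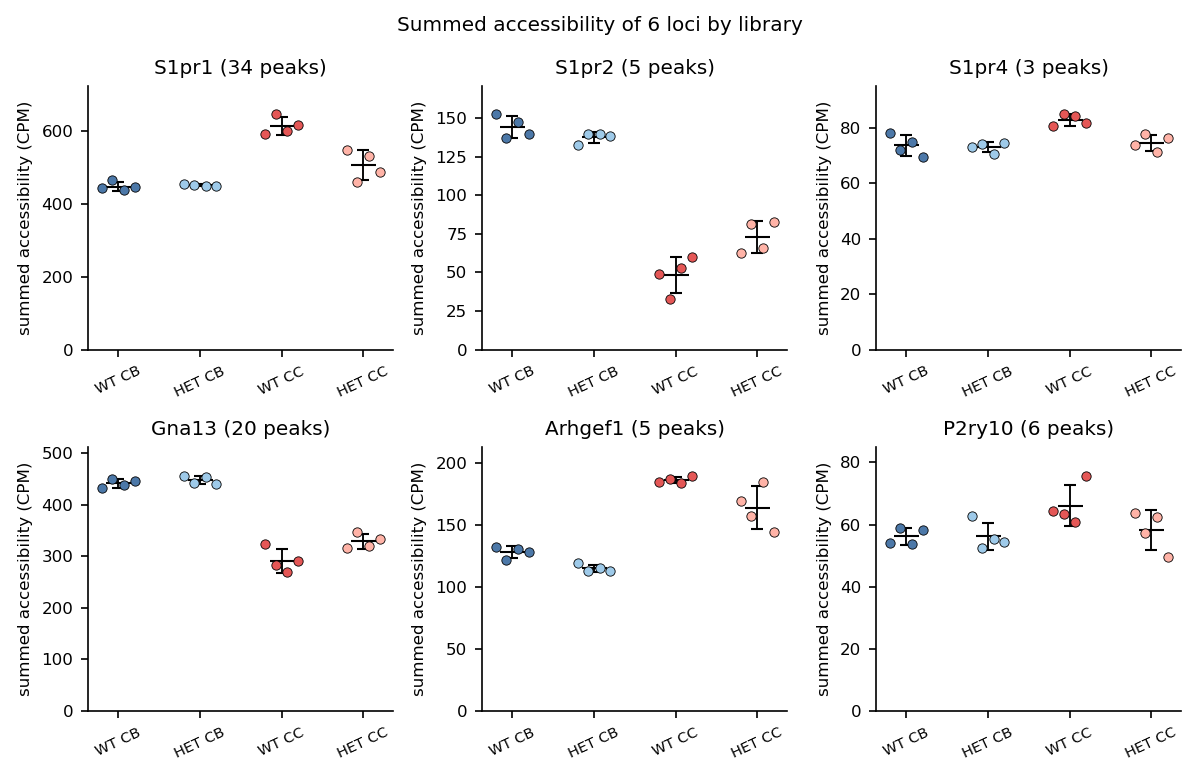
Summed accessibility of the 6 loci in CPM scaled to gene-assigned peaks (y axes, from 0) in each library (points, by group on the x axis), with the mean (dash) and SD (bars). S1pr2 falls from 132 to 153 CPM in CB to 32.6 to 60.1 for WT CC against 62.3 to 82.6 for HET CC, and S1pr1 rises from 437 to 465 CPM in CB to 593 to 647 for WT CC against 460 to 549 for HET CC.

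The study asked whether loss of 1 Smarca4 copy alters accessibility within each cell type. In CB none of the 73 member peaks and none of the 6 loci passed edgeR's test. Of all peaks 0.129% passed it (0.00243% higher, 0.127% lower), and of all genes 0.551%. DESeq2 called 1 member peak lower, and over all peaks 119 higher and 528 lower of 82188. The median log2 fold change of the members was 0.01, against -0.01 over all peaks. The groups did not overlap at 5 member peaks, against 8.53% of all peaks. Arhgef1 came nearest at the level of the locus: all 4 HET CB libraries, at 113 to 119 CPM, lay below all 4 WT CB libraries, at 121 to 132 (log2 fold change -0.15 ± 0.05 SE, adjusted p = 0.161). When only the CB libraries were fitted the same difference passed (log2 fold change -0.16, adjusted p = 0.0147). That fit called more genes in all, 123 of 15063 higher and 366 lower. Over all genes, 11.8% had such groups without overlap in CB.

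In CC the genotypes differed at S1pr2, Gna13 and S1pr1, and at Arhgef1 with an adjusted p close to the threshold. S1pr2 and Gna13 were more open in HET CC than in WT CC, and S1pr1 was less open. edgeR called 10 of the 73 peaks, 5 with more and 5 with less accessibility in HET CC, against 2.06% of all peaks (1.08% higher, 0.979% lower). The split was not even in other fits: 2 higher and 6 lower after thinning, 2 and 8 with a filter of 20 counts in every library, and 0 and 2 with the CC libraries alone. These fits tested 70, 51 and 70 member peaks. Over all peaks they called 466 higher and 346 lower of 75890, 527 and 1030 of 35534, and 77 and 114 of 75434, in that order. Without WT CC library 2, HET CC library 2 or HET CC library 4 the member split was 0 higher and 3, 1 and 3 lower in that order. Scaling by total counts moved the split over all peaks from 889 higher and 805 lower to 1168 and 490. The higher ones were 3 of 5 at S1pr2 and 2 of 20 at Gna13, and the lower ones 4 of 34 at S1pr1 and 1 of 6 at P2ry10. The groups did not overlap at 9 member peaks, against 5.6% of all peaks. HET and WT CC are compared here with each other, and the same CC libraries also enter the comparisons with CB above.

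The S1pr2 sums in WT CC and HET CC given above differed by 0.59 ± 0.11 on the log2 scale (SE; adjusted p = 0.00169), which is 1.51-fold, where 6.65% of all genes were called. The difference was positive at all 5 S1pr2 peaks and stayed between 0.44 and 0.71 for the sum whichever library was left out. The called peaks were the 3 upstream ones. At 3183 bp, WT CC held 5.28, 5.30, 6.20 and 12.3 CPM and HET CC between 10.0 and 15.2 CPM (log2 difference 0.85 ± 0.19, adjusted p = 0.0135). WT CC library 4 stood among the HET CC libraries there, so the groups overlapped. At 6522 and 11255 bp the differences were 0.56 ± 0.16 and 0.58 ± 0.16 (adjusted p = 0.0446 and 0.0387), with overlapping groups; neither passed after thinning (adjusted p = 0.157 and 0.107). None of the 3 passed when only CC libraries were fitted (adjusted p = 0.0903, 0.215 and 0.187). The call at 3183 bp was lost without WT CC library 1 or 2 or HET CC library 2 or 4 (adjusted p up to 0.0679), and that at 11255 bp without WT CC library 1, 2 or 3 or HET CC library 2 or 4 (up to 0.186). The call at 6522 bp was lost in 12 of 16 such fits (up to 0.164), all but those without WT CB library 2, WT CC library 4 or HET CC library 1 or 3. The start peak differed by 0.35 ± 0.15 and was not called (adjusted p = 0.192).

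Gna13 summed to 269 to 324 CPM for WT CC against 316 to 347 for HET CC, a difference of 0.17 ± 0.05 on the log2 scale (SE; adjusted p = 0.0189). WT CC library 1, at 324 CPM, overlapped the HET CC range. This call was lost without WT CC library 2 or 3 or HET CC library 2 or 4 (adjusted p = 0.0584, 0.0755, 0.0901 and 0.0584 in that order), when only CC libraries were fitted (0.0933) and after thinning (0.057). Both called peaks were among those with large losses in WT CC. The downstream one at 4314 bp held 3.53 to 6.67 CPM for WT CC against 6.98 to 9.37 for HET CC, without overlap (log2 difference 0.87 ± 0.22, adjusted p = 0.027). This call was lost without WT CC library 2, 3 or 4 or HET CC library 2 or 4 (adjusted p up to 0.0928) and when only CC libraries were fitted (0.159). The one 14836 bp inside the gene (chr11:109377380-109377880) held 7.50, 2.06, 3.66 and 3.56 CPM in WT CC and 8.77, 7.92, 5.47 and 8.85 in HET CC (log2 difference 0.89 ± 0.25, adjusted p = 0.0478). Its WT CC values rest on 7 to 27 counts per library. The call was lost in 14 of 16 fits that left out 1 library (adjusted p up to 0.185), all but those without WT CC library 1 or HET CC library 3, after thinning (0.0672) and with the CC libraries alone (0.183). The start peak, which rose from CB to CC, differed by 0.02 ± 0.08 between genotypes.

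S1pr1 summed to 593 to 647 CPM for WT CC against 460 to 549 for HET CC, with no overlap (log2 difference -0.28 ± 0.04 SE, adjusted p = 0.000245). Leaving out any 1 library kept the difference between -0.32 and -0.23 and the adjusted p at or below 0.00388. The difference was negative at 31 of 34 peaks, with a median of -0.28 against 0.00 over all peaks; these peaks share libraries and a locus and are not replicates. The largest called difference lay 68300 bp from the gene on the lower-coordinate side (chr3:115641883-115642383). Accessibility there was 15.3, 15.0, 16.9 and 10.7 CPM in WT CC and 9.29, 6.86, 9.25 and 6.52 in HET CC, a 1.83-fold lower level in HET (log2 difference -0.88 ± 0.18, adjusted p = 0.00575). The same peak rose from CB to CC in WT (log2 fold change 0.55) and fell in HET (-0.34, adjusted p = 0.0384, and 0.199 after thinning; lost in 4 of 16 fits that left out 1 library), the only member peak called in opposite directions.

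The other 3 called S1pr1 peaks were at 36533 bp on the lower-coordinate side (chr3:115673650-115674150), at the higher-coordinate end of the gene (chr3:115714642-115715142) and at 84417 bp on the higher-coordinate side (chr3:115799222-115799722). They held 17.2 to 24.2, 43.4 to 54.8 and 22.5 to 28.1 CPM in WT CC. In HET CC they held 10.1 to 17.0, 25.6 to 44.0 and 14.1 to 21.0 CPM. The log2 differences were -0.71 ± 0.16, -0.52 ± 0.11 and -0.50 ± 0.14 (adjusted p = 0.0117, 0.00562 and 0.0392). The groups did not overlap at the first and the last of these. The peak at the gene end overlapped by a single HET CC library. The first call was lost without HET CC library 2 or 4 (adjusted p = 0.0547 and 0.0634) and, narrowly, when only CC libraries were fitted (0.05003). The second was lost without HET CC library 2 (0.0569). The call at 84417 bp was lost without WT CC library 1, 2 or 4 or HET CC library 2 or 4 (up to 0.183), with total-count scaling (0.0559) and when only CC libraries were fitted (0.137).

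P2ry10, S1pr4 and Arhgef1 were lower in HET CC by 0.19 ± 0.09, 0.15 ± 0.07 and 0.19 ± 0.06 on the log2 scale (SE), with adjusted p = 0.205, 0.192 and 0.0447. The Arhgef1 groups overlapped, at 144 to 185 against 184 to 189 CPM, and its call was lost in 13 of 16 fits that left out 1 library (lowest difference -0.13, adjusted p = 0.212, without HET CC library 4), after thinning, with total-count scaling, with assignment within 10 kb and when only CC libraries were fitted. At P2ry10, 1 peak 3985 bp upstream (chrX:107084257-107084757) was called: it held 10.3, 13.5, 8.46 and 11.2 CPM in WT CC and 7.40, 4.35, 6.23 and 5.74 in HET CC, without overlap (log2 difference -0.89 ± 0.21, adjusted p = 0.0138). This call was lost without WT CC library 2 or HET CC library 2 (adjusted p = 0.0672 and 0.0789) and when only CC libraries were fitted (0.0947). The S1pr4 peak near the start was lower in HET CC by 0.34 ± 0.10 and had no overlap, but missed the threshold in the edgeR fit (adjusted p = 0.051) and passed it in DESeq2 (0.00764).

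**Figure D4:**
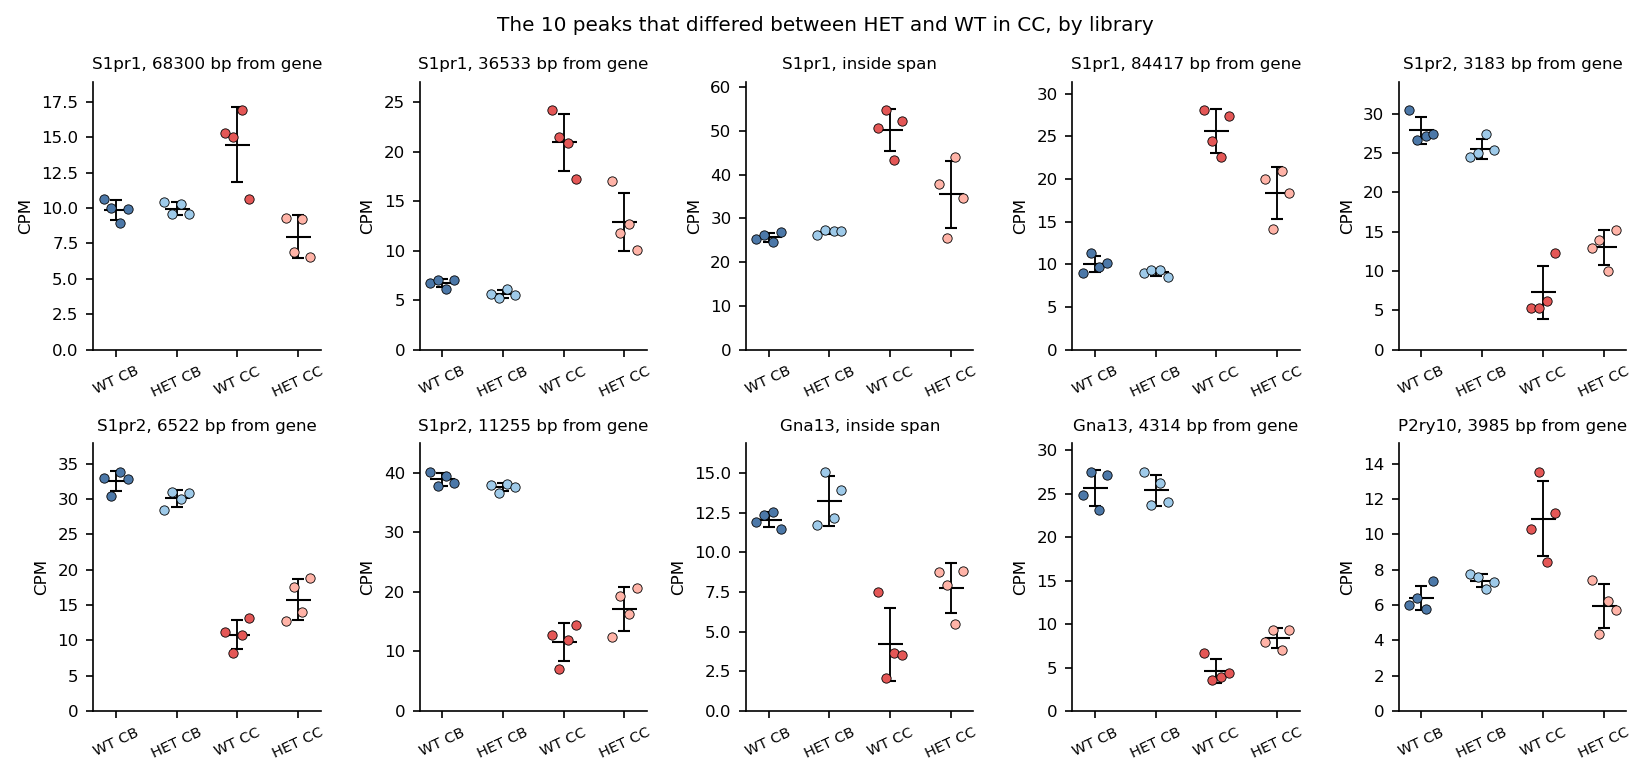
Accessibility in CPM (y axes, from 0) of the 10 member peaks called between HET and WT in CC, in each library (points, by group on the x axis), with the mean (dash) and SD (bars); titles give the distance from the gene span. CB values of the genotypes lie close together, and in CC the 5 S1pr1 and P2ry10 peaks are lower and the 5 S1pr2 and Gna13 peaks higher in HET.

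The HET CC libraries were not alike. Libraries 2 and 4 had the lower S1pr1 sums, 460 and 488 CPM against 549 and 531, and the higher S1pr2 sums, 81.3 and 82.6 against 62.3 and 65.7. The same 2 libraries had 922 and 973 CPM at the germinal center B cell loci, against 851 and 847 in libraries 1 and 3, and 299 and 270 CPM at the T cell loci, against 341 and 350. At S1pr1, WT CC libraries 2 and 4 stood the other way, at 647 and 618 CPM against 593 and 599. Odd-numbered and even-numbered libraries stood apart in other groups too, as given at the end, and the part of this was not tested. The locus differences of S1pr1 and S1pr2 between HET and WT in CC passed the test in all 16 fits that left out 1 library. In HET CC against WT CC, 3 of 7 germinal center loci were higher, 4 of 10 T cell loci and 2 of 4 naive follicular loci were lower, against 3.24% of all genes higher and 3.4% lower; their part in the differences at these loci was not tested.

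Whether the genotype difference in CC exceeds that in CB was tested as an interaction. It passed at the S1pr1 locus (-0.29 ± 0.06 on the log2 scale, SE; adjusted p = 0.0126) and the S1pr2 locus (0.66 ± 0.13, adjusted p = 0.0106), where 0.411% of all genes did (0.352% higher, 0.0597% lower). Of the 7 germinal center B cell loci on the marker list, 3 were also called higher and 0 lower. The S1pr1 call was lost without HET CC library 2 (-0.24, adjusted p = 0.0645) and with assignment within 10 kb (-0.28, adjusted p = 0.108), and the S1pr2 call after thinning (0.62, adjusted p = 0.0722). Gna13, Arhgef1, S1pr4 and P2ry10 gave 0.15 ± 0.06, -0.03 ± 0.08, -0.13 ± 0.08 and -0.19 ± 0.11 (adjusted p = 0.249, 0.903, 0.509 and 0.473). Among the peaks, 1 was called higher and 3 lower, against 0.159% of all peaks (0.128% higher, 0.0316% lower). These were the S1pr2 peak at 3183 bp (0.97 ± 0.21), the S1pr1 peaks at 68300 bp (-0.89 ± 0.21) and at the gene end (-0.59 ± 0.13), and the P2ry10 peak at 3985 bp (-1.10 ± 0.24), with adjusted p between 0.0301 and 0.0453. All 4 peak calls were lost after thinning. Each was also lost in 8 to 13 of the 16 fits that left out 1 library, and between 0 and 7 member peaks were called in them.

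From CB to CC, the change was smaller in HET than in WT at 55 of 73 member peaks (75.3%), against 60.6% of all peaks. It was smaller at all 5 S1pr2 peaks, 16 of 20 Gna13 peaks, 25 of 34 S1pr1 peaks and 4 of 5 Arhgef1 peaks. WT CC libraries are the shallowest, and their part in this was not tested. Of the 73 peaks, 26 were called higher and 20 lower in both genotypes, where 57.9% of all peaks were called in WT and 58.8% in HET. The share of all peaks called alike in both was not counted.

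**Figure D5:**
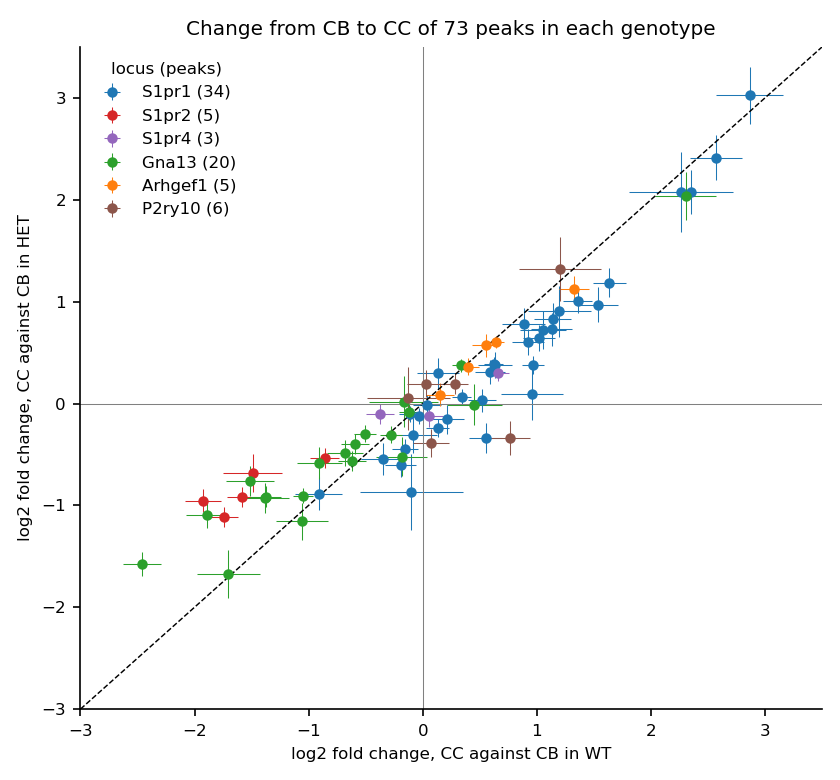
Log2 fold change from CB to CC in HET (y axis) against WT (x axis) for the 73 member peaks, with SE, coloured by locus; the dashed line marks equal change. S1pr2 peaks all lie above the line at changes of -1.93 to -0.86 in WT, and S1pr1 peaks with gains lie mostly below it.

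Other genes of S1P and G-alpha-13 signaling, from a list of 52 of which 51 had peaks (Arrb2 had none), moved in both directions. From CB to CC, 21 rose and 17 fell in WT and 19 rose and 17 fell in HET, where 63.3% of all genes were called in WT (31.6% higher, 31.7% lower) and 62.8% in HET (31.1% higher, 31.7% lower), with medians of 0.02 and -0.03 on the log2 scale against -0.01 and 0.00 over all genes. Of the remaining S1P receptors, S1pr3 fell by 0.40 and S1pr5 rose by 0.39 in WT. Among enzymes and transporters of S1P, Sphk1, a kinase that makes it, fell by 0.60, and Plpp1, a lipid phosphatase, fell by 0.79; Sphk2, the other kinase, rose by 0.36. Spns2 and Mfsd2b, which export S1P from cells, were not called.

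Among G-alpha-12/13 transducers, the sister subunit Gna12 fell by 0.48 and the exchange factors Arhgef12 and Arhgef11 by 0.63 and 0.23 in WT, whereas Arhgef1 rose, as given above. Rhob and Msn, which encodes the membrane linker moesin, rose by 0.44 and 0.46. Of the regulators of G-alpha-i signaling, Rgs16 rose by 0.83 and Rgs13, also on the germinal center marker list, fell by 0.52. Ggt5, which breaks down the ligand of another G-alpha-13 receptor, rose by 1.08 with a single peak. Klf2, the transcription factor known to drive S1pr1, rose by 0.84 and Ccr7 by 0.62, while Ackr4, a scavenging receptor for chemokines, fell by 1.71 and Cxcr4 by 0.33. Cd69, whose product pulls S1PR1 off the surface, rose by 0.17.

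Between genotypes in CB, none of the 51 passed edgeR's test, where 0.551% of all genes did. DESeq2 called 1 and a fit of the CB libraries alone 5. Over all genes these called 47 higher and 221 lower of 15071, and 123 and 366 of 15063, in that order. In CC, 2 were higher and 8 lower in HET, against 6.65% of all genes. In total, 5 were called without HET CC library 2, 4 without HET CC library 4 and 5 in a fit of the CC libraries alone. That last fit called 116 of 14773 genes higher and 148 lower. In the fit of all libraries, Ackr4 was higher by 0.63 and Plpp1 by 0.23. Ccr7 was lower by 0.31, P2ry12 and Arrb1 by 0.30 each, Klf2 and P2ry14 by 0.29 each, Gpr183 and Gpr174 by 0.25 each and Ezr by 0.15. P2ry12, P2ry14 and Gpr174 are relatives of P2ry10, and Gpr183 and Ccr7 guide B cells to the edges of the follicle. Ccr7 and Klf2 also stand on the marker list of naive follicular B cells and are its 2 loci called lower in HET CC above. Ackr4 alone passed the interaction test (0.58, adjusted p = 0.0453), where 0.411% of all genes did. No gene of the list passed it after thinning or when any 1 CB library was left out. None passed without WT CC library 2, 3 or 4 or HET CC library 2 or 4 either. DESeq2 called 1 of the list higher and 3 lower, and over all genes 224 higher and 126 lower of 13025. The list's median difference in CC was -0.08, against 0.00 over all genes.

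For each locus, the genes with the most similar pattern of summed accessibility over the 16 libraries were sought among 9072 genes with at least 3 peaks, by the root mean square difference of centred log2 CPM. For S1pr2 the nearest were Gcsam (0.158), Vwa3b (0.159) and Cybrd1 (0.160), where the median over all genes was 0.685. Gcsam, a germinal center gene on the marker list, went from 177 CPM in WT CB to 55.5 in WT CC and 89.5 in HET CC. For S1pr1 the nearest were Pik3ip1 (0.0422), Ripor2 (0.0536) and Pgm2 (0.0579), against a median of 0.274. For Gna13 they were Pitpnc1 (0.0356), Mcoln2 (0.0503) and Slc16a1 (0.0528), and for Arhgef1 Scml4 (0.0514), Zmiz2 (0.0565) and Fbrs (0.0573). For S1pr4 the nearest was Fasl (0.0388) and for P2ry10 Ndc80 (0.0613).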

How the data were processed

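Omni-ATAC libraries of CB and CC cells from Smarca4+/+ and Smarca4+/- mice were analysed, 16 libraries in 4 groups of 4. The authors deposited raw read counts per peak for a peak set of 501 bp regions shared by all libraries; per the submitters' processing notes, FastQC, BWA, deepTools, R 4.2.1 and build mm10 were used. How peaks were called and reads counted or shifted was not given in the sources used here. Each peak was assigned by its middle to the nearest protein-coding RefSeq gene span of GRCm38.p6, at most 50 kb away (S1pr1: 100 kb), which placed 74781 peaks (91.0%) at 15071 genes; 961 peaks lay in several spans and went to the shortest.

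Peaks, and counts summed per gene, were each fitted with edgeR 4.0.16 (R 4.3.3; filterByExpr, which removed 0 peaks and 0 genes; TMM; robust quasi-likelihood F test) over all 16 libraries with 1 coefficient per group, and p-values were adjusted over all peaks or all genes (Benjamini-Hochberg; called below 0.05). SE is the log2 fold change divided by the root of F. CPM uses TMM-scaled library sizes, of gene-assigned peaks for summed loci. Alternatives were DESeq2 1.42.0, other scalings and filters, the 2 groups compared alone, thinning to the smallest library, a replicate block and leaving out each library. The code was tested on simulated counts. Peaks named in the text were, per locus, the peak nearest the start, the most open, those with the largest rise and fall in WT, and those called between genotypes; further peaks are given to describe position. Members and lists were chosen with earlier results of these data known. Some list genes and 1 promoter with the peak over it are not reported here, and the list counts and sums leave those genes out.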

Additional observations from a re-analysis of the deposited data

Results flagged for a closer look

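Of 116 groups of 4 libraries examined at the named peaks and the loci, 3 held a library far from the other 3 of its group, where chance alone flags about 1 in 20. WT CC library 4 was high at the S1pr2 peak 3183 bp upstream, at 12.3 CPM against 5.28 to 6.20 CPM in the other WT CC libraries. HET CC library 4 was high at the S1pr4 peak at the far end of the gene, at 21.0 CPM against 18.2 to 18.3 CPM. HET CB library 1 was low at the S1pr1 peak at the gene end, at 26.2 CPM against 27.1 to 27.3 CPM.

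The genotype difference in CC minus that in CB, tested as an interaction, passed at 6 places. On the log2 scale it was -0.29 at the S1pr1 locus and 0.66 at the S1pr2 locus. It was 0.97 at the S1pr2 peak 3183 bp upstream, -0.89 at the S1pr1 peak 68300 bp from the gene, -0.59 at the S1pr1 peak at the gene end and -1.10 at the P2ry10 peak 3985 bp upstream.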

How the results depend on the processing

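No result changed direction with a call under any alternative. Leaving out 1 library gave 52 to 54 member peaks called between CC and CB in WT (53 with all libraries) and 48 to 58 in HET (54 with all). For HET against WT in CB, where 0 were called, DESeq2, a filter of 20 counts in every library and a fit of the CB libraries alone each gave 1. Over all peaks these called 119 higher and 528 lower of 82188, 7 and 132 of 35534, and 418 and 660 of 82072, in that order. For HET against WT in CC, where 10 were called, DESeq2 gave 16 and a fit of the CC libraries alone 2, and leaving out 1 library gave 1 to 14. Over all peaks DESeq2 called 2165 higher and 2497 lower of 79001, and the CC libraries alone gave 77 and 114 of 75434. For the interaction, where 4 were called, DESeq2 gave 9, thinning 0 and a replicate block 0, and leaving out 1 library gave 0 to 7. Over all peaks DESeq2 called 862 higher and 551 lower of 58286, thinning 8 and 1 of 75890, and the block 25 and 4 of 82188. The cause was not tested. The labels state no pairing, and the main fit used none. Same-numbered CB and CC libraries correlated weakly, at 0.07 to 0.115 in WT and 0.041 to 0.078 in HET. In WT each library correlated best with its own number, and in HET 3 of 4 CB and 2 of 4 CC libraries did. Same-numbered WT and HET libraries correlated at -0.242 to -0.167 in CB and -0.048 to 0.014 in CC. Odd-numbered and even-numbered libraries did stand apart: CB and CC libraries that were both odd or both even correlated at 0.051 to 0.115 in WT and 0.041 to 0.078 in HET, those that were not at -0.111 to -0.023 and -0.071 to -0.045, and odd WT CB with even HET CB libraries, or even with odd, at 0.149 to 0.243. No label gives a source for this, and its part in the results was not tested. With the block, 53 peaks were called from CB to CC in WT, and 7 for HET against WT in CC. The HET against WT calls in CC lost by edgeR's test with the block were at 3 peaks. They were the S1pr2 peak at 6522 bp, the Gna13 peak 14836 bp inside the gene and the S1pr1 peak at 84417 bp (adjusted p = 0.0514, 0.0592 and 0.0593). Scaling by total counts moved the gene split of HET against WT in CC from 489 higher and 513 lower to 567 and 366, and scaling factors taken from the peaks, chosen after seeing the data, to 397 and 680. Among the other results, 3439 values kept their call, 156 lost it, 27 gained it and 22 counts moved. WT CC libraries were the shallowest, with a median of 22 to 24 counts per peak and library.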
